A study of Mus musculus with 8 samples.

Results

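Macrophages and other leukocytes of the embryonic kidney were followed through 39 genes: resident macrophage receptors, the complement C1q chains, Fc receptors and their signalling adaptors, lysosomal and phagocytic effectors, pan-leukocyte genes, and monocyte and granulocyte genes. The genes were chosen by name, with earlier results of these data known. A probe belonged to a gene when its RefSeq accession matched the gene's symbol. Of the 39 genes, 38 had a matched probe and 34 passed the filter on dim probes, among 13987 genes tested in all. Cd68, the remaining gene, was not analysed here. Spi1, Cd163, Ccr2 and Mpo had matched probes but were too dim to be tested.

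Each of the 8 samples was RNA from the paired whole kidneys of C57BL/6 mouse embryos at embryonic day 16.5. The 4 WT samples carried the control genotype. The 4 KO samples were labelled DOT1-null: Dot1 (taken here as Dot1l, a histone H3 lysine methyltransferase) was knocked out conditionally in nephron progenitor cells positive for Six2, and the driver of the knockout is not given in the sources used here. Agilent mouse arrays with 2 colours were used: Cy5 (red) marked the sample, and Cy3 (green) marked RNA of WT1, which served as the reference throughout. The WT1 array thus held the same RNA in both colours, with no dye swap, and its values carry no difference in expression. It is still counted among the 4 WT samples, and fits without WT1 are given below. A value below is the log2 ratio of a sample to that WT1 reference, so that 0 is nominally the level of the reference. On the WT1 array itself the 34 genes ran from -0.34 (Fcgr3) to 0.18 (Ptprc). A value can thus depart from 0 without a difference in expression. A difference is the mean of the 4 KO values minus the mean of the 4 WT values on that scale. A gene was called when its adjusted p in limma's test over all 13987 genes, with Benjamini-Hochberg adjustment, was below 0.05. Because the whole organ was measured, more cells of a type and more RNA per cell cannot be told apart.

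Macrophages of the fetal kidney arise from yolk sac and fetal liver haematopoiesis and enter the organ from outside, so they do not belong to the Six2 lineage. They depend on the receptor Csf1r, which binds the cytokines Csf1 and Il34, and on the transcription factor Spi1 (PU.1), which binds purine-rich sites with a GGAA core at many myeloid promoters. Resident macrophages clear dying cells and debris: they secrete C1q, bear Fc receptors and scavenger receptors such as Mrc1 and Stab1, and degrade what they take up with lysosomal proteases such as Ctss and Lgmn.

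The 250 bases upstream of the transcription start are shown for 4 of the 5 genes that were called and for C1qc, from RefSeq on GRCm38.p6, each read 5′ to 3′ on the strand of its gene. Capitals mark GAGGAA or its reverse complement TTCCTC, the core that Spi1 prefers. The windows are chr2:14229164-14229413 (plus strand) for Mrc1, chr9:120068297-120068546 (minus strand) for Cx3cr1, chr5:90772185-90772434 (plus strand) for Pf4, chr13:37050245-37050494 (minus strand, the first of 2 start sites) for F13a1 and chr4:136892915-136893164 (minus strand) for C1qc.
Mrc1: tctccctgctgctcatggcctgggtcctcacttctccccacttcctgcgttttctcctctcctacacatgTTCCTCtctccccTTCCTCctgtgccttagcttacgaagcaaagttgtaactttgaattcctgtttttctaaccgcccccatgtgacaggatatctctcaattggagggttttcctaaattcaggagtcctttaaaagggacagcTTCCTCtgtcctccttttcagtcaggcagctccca
Cx3cr1: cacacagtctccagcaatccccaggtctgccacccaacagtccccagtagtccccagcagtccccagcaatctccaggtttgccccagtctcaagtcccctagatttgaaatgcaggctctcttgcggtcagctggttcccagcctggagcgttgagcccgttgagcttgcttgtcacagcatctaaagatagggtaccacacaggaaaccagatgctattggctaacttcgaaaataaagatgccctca
Pf4: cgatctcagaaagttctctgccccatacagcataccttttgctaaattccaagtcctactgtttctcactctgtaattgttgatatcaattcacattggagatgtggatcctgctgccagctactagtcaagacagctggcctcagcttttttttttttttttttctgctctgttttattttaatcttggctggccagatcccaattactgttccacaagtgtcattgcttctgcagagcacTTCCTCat
F13a1: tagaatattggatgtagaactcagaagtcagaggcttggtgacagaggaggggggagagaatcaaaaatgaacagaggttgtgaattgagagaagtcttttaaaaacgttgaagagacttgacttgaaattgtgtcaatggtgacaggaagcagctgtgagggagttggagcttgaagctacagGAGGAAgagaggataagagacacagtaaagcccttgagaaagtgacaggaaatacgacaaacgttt
C1qc: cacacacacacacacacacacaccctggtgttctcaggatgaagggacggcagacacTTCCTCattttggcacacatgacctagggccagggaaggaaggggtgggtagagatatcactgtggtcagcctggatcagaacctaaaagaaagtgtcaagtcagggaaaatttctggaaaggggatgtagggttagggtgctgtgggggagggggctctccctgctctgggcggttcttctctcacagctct

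The Mrc1 window held 3 matches, beginning 180, 167 and 35 bases before the start. Pf4 held 1 match at 8 bases, F13a1 held 1 at 66 bases, C1qc held 1 at 193 bases, and Cx3cr1 held 0. On either strand, GAGGAA occurred upstream of 17 of the 30 member genes that have a RefSeq window, or 56.7%, against 25.9% of 27025 mouse genes. The RUNX core TGTGGT occurred in 8 of the 30 (26.7%, against 15.9% of genes), and the AP-1 site TGANTCA in 5 of the 30 (16.7%, against 7.82%). These are matches of letters in a window of fixed length and no measure of binding.

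The arrays differed in ways that bear on the values below. All lay on 1 slide, with WT in one slide row and KO in the other, so the row and the genotype cannot be told apart. The WT1 and KO1 arrays stood apart: their negative-control spots had red medians of 1361 and 478 against 58 to 61 on the other arrays, and their green signals correlated at 0.558 and 0.901 with those of the other arrays, which correlated with one another at 0.996 to 0.997. Of 34 tested genes, 10 were not well above background on the WT1 array: Mrc1, Lyve1, Cx3cr1, F13a1, C1qc, Trem2, Ctss, Cybb, Ly86 and S100a8. The Y-linked gene Ddx3y lay between 2.31 and 3.29 in all 4 KO samples and WT2 and near 0 in the other WT samples, so 4 of 4 KO and 1 of 4 WT samples were male. WT4 and KO3 were at opposite ends for the embryonic globin Hbb-y, at 2.01 and -1.69, and for the median of 6 proximal tubule genes, at -0.82 and 0.65. Dot1l itself lay between -0.23 and -0.09 in WT and between -0.21 and -0.04 in KO. Its difference was 0.03 ± 0.08 (SE, limma, adjusted p = 0.924), so it does not check the labels. Cited1, a progenitor gene, was at 0.02 to 0.29 in 3 WT samples and -0.06 in WT1, against -2.76 to -2.50 in KO.

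Of the 34 genes tested, 5 were called, all of them higher in KO: Csf1r, Mrc1, Cx3cr1, F13a1 and Pf4. That is 14.7%, beside 1.57% of all genes called higher. Because the list was chosen with earlier results of these data known, this share and those below describe the list and test nothing. In 16 of the 34 genes (47.1%) every KO sample lay above every WT sample, which held for 6.81% of all genes, and in 0 did every KO sample lie below (2.46% of all genes). The median difference over the 34 genes was 0.29, against 0.03 over all genes, and 30 of the 34 differences (88.2%) were above 0, against 59.3% of all genes. With the replicate number as a block, 7 of the 34 were called, beside 3.17% of all genes called higher: the same 5 genes and also C1qc and Fcer1g. With the red channel alone, without the reference, the median of all genes moved to 0.23 and that of the 34 genes was 0.30. There 26 of the 34 differences were above 0 and 0 were called in limma's fit (1 at an unadjusted p below 0.05), beside 0% of all genes called higher. The 5 called genes were then at 0.52 ± 0.75 (Mrc1), 0.85 ± 0.45 (Csf1r), 1.06 ± 0.75 (Cx3cr1), 1.11 ± 0.66 (Pf4) and 1.15 ± 0.80 (F13a1; SE). Of the genes named below with a higher KO mean, Aif1 was then at -0.14, Ptprc at -0.29, Lyz2 at -0.12, Itgb2 at -0.55, Mpeg1 at -0.09, Laptm5 at -0.08 and Folr2 at -0.03. Without WT1 and KO1 the red channel gave 32 of 34 differences above 0, a median of 0.28 against -0.01 for all genes, and 0 calls in limma's fit (16 at an unadjusted p below 0.05), beside 0.701% of all genes called higher.

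**Figure D1:**
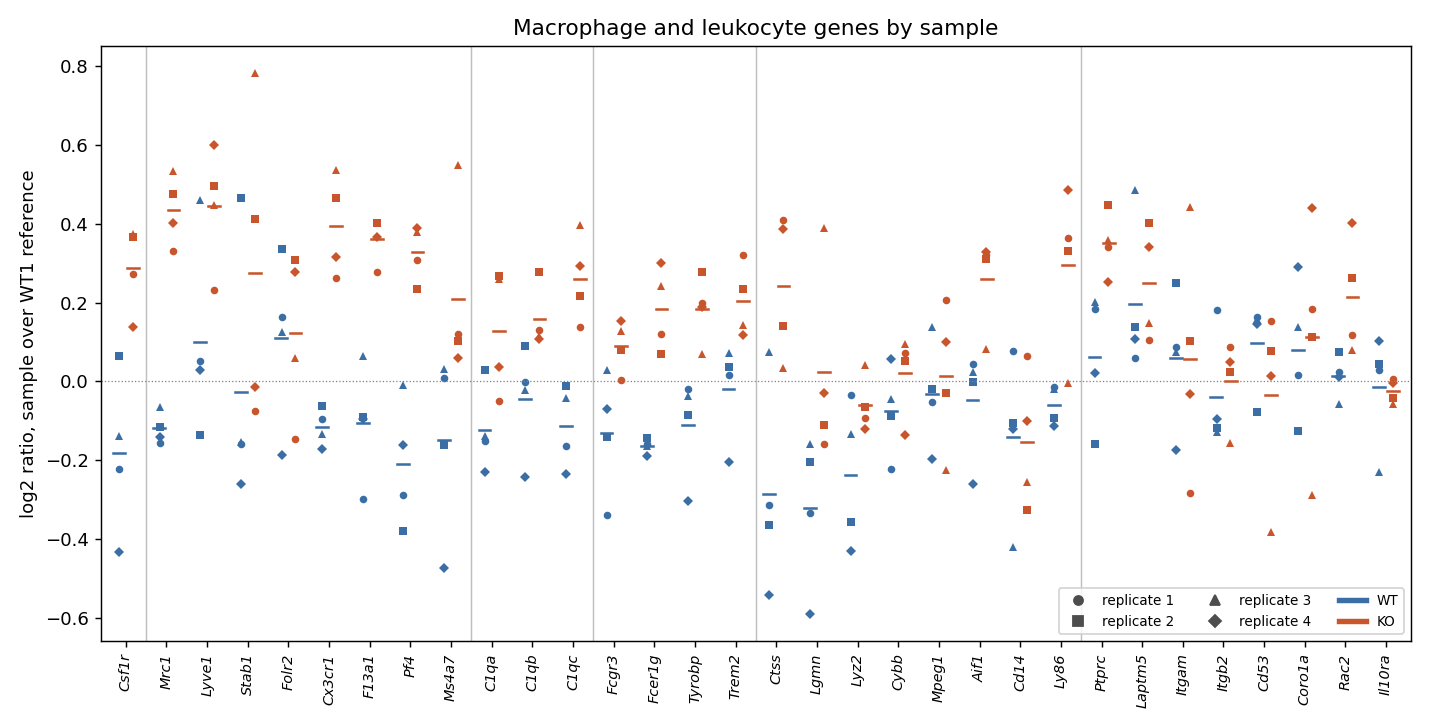
Log2 ratio to the WT1 reference of each measured gene except S100a8 and S100a9 (horizontal axis, grouped by role). Points show the 4 WT and 4 KO samples, 1 per sample, with the symbol giving the replicate number. KO points lie above all WT points for 16 of these 32 genes, among them the resident macrophage genes Mrc1, Cx3cr1, F13a1 and Pf4.

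Csf1r, the receptor that macrophages need to survive, was at -0.22, 0.06, -0.14 and -0.43 in WT1 to WT4 and at 0.27, 0.37, 0.38 and 0.14 in KO1 to KO4. All KO samples lay above all WT samples, with KO4 nearest to WT2. The difference was 0.47 ± 0.11 (SE, n = 4 and 4, limma, adjusted p = 0.048), or 1.39-fold. The call held in 1 of the 8 fits that each leave out a sample, the one without WT2. It was lost in 17 of all 21 alternative fits. Among these were scale normalization (limma, adjusted p = 0.060) and no filter on dim probes (limma, adjusted p = 0.053). The brightest probe stood for the gene, and the other 2 matched probes gave 0.25 and 0.06. The mean of the probes gave 0.26 (limma, adjusted p = 0.310). Spi1, the partner lineage factor, was well above background on the WT1 array alone and has no tested value.

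The resident macrophage genes held the other 4 calls among 8 measured, with a median difference of 0.41. Mrc1, the mannose receptor that takes up glycoproteins, was at -0.16, -0.12, -0.06 and -0.14 in WT1 to WT4 and at 0.33, 0.47, 0.54 and 0.40 in KO1 to KO4. The WT samples lay close together, and the lowest KO sample was well above the highest of them. WT1 counts among them, although the Mrc1 probe was not well above background on that array. Mrc1 rose by 0.56 ± 0.08 (SE, limma, adjusted p = 0.0055), or 1.47-fold, with a 95% interval of 0.38 to 0.73.

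Cx3cr1, the fractalkine receptor of macrophages and microglia, was at -0.10, -0.06, -0.13 and -0.17 in WT and at 0.26, 0.46, 0.54 and 0.32 in KO. As for Mrc1, KO3 was the highest sample and the WT samples were close together, with the WT1 probe again not well above background. The difference was 0.51 ± 0.09 (SE, limma, adjusted p = 0.012). Its other 2 matched probes gave 0.49 and 0.30.

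F13a1, the coagulation factor XIII A chain that tissue macrophages express, was at -0.30, -0.09, 0.06 and -0.10 in WT and at 0.28, 0.40, 0.40 and 0.37 in KO. The groups did not overlap, and the KO samples were nearly alike. The difference was 0.47 ± 0.09 (SE, limma, adjusted p = 0.022). A second, dim F13a1 probe gave 0.01.

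Pf4, a chemokine made by megakaryocytes and by some tissue macrophages, was at -0.29, -0.38, -0.01 and -0.16 in WT and at 0.31, 0.24, 0.38 and 0.39 in KO. Every KO value was above 0 and every WT value below, although the WT1 value compares the reference with itself. The difference was 0.54 ± 0.10 (SE, limma, adjusted p = 0.015). Megakaryocyte and platelet markers gave 0 calls among 5 measured, with a median difference of 0.02. Gp9, a platelet adhesion receptor subunit, gave -0.23, and its partner Gp1bb gave 0.10.

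The remaining resident macrophage genes were not called. Ms4a7, a membrane protein of macrophages, gave 0.36 (limma, adjusted p = 0.231), with groups that did not overlap. Lyve1, a hyaluronan receptor shared by macrophages and lymphatic endothelium, gave 0.34 (limma, adjusted p = 0.220), with WT3 at 0.46 inside the KO range. Lymphatic endothelial markers gave 0 calls among 3 measured, with a median of -0.04, among them Reln at -0.10 and Pdpn at -0.04. The scavenger receptor Stab1 gave 0.30 and the folate receptor Folr2 gave 0.02, and both overlapped between the groups. The Folr2 interval ran from -0.27 to 0.30, so a difference as large as those of F13a1 or Csf1r lies outside it.

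**Figure D2:**
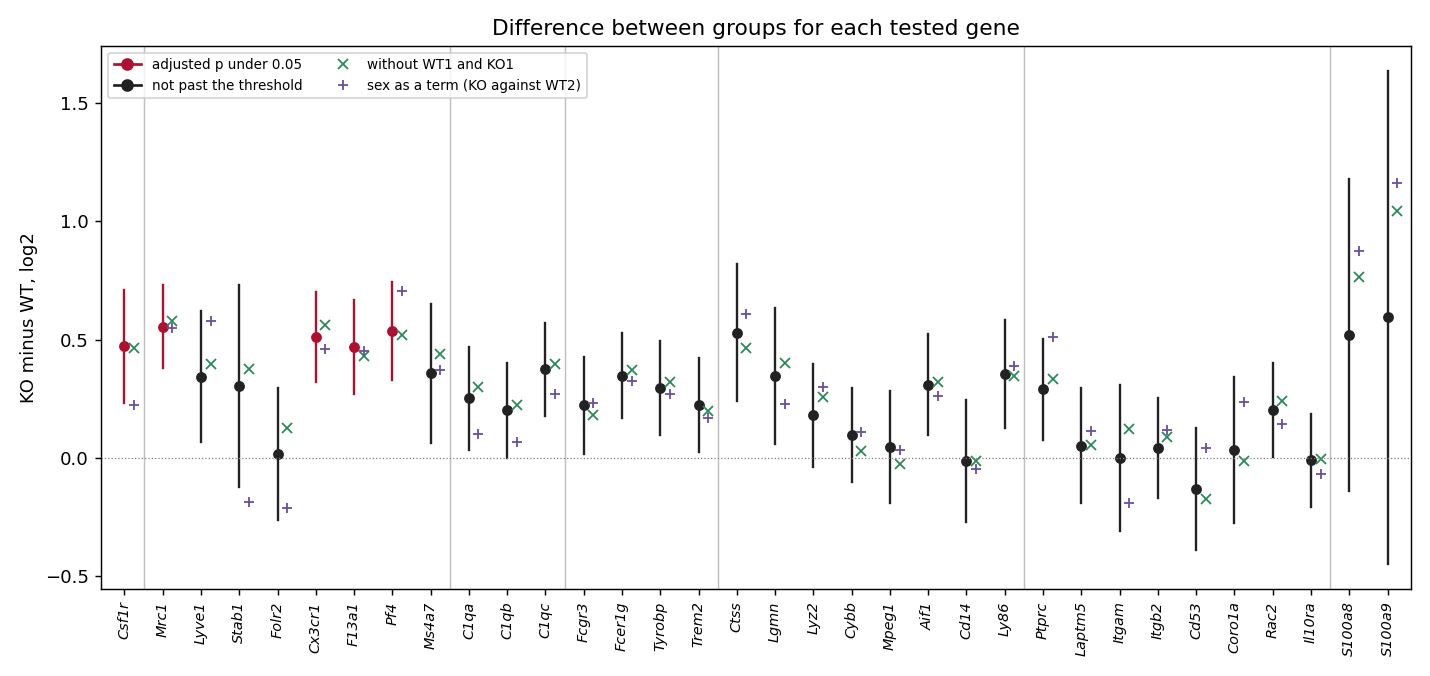
Difference between KO and WT in log2 ratio (points) with its 95% interval (bars) for each measured gene, beside the difference without WT1 and KO1 and the difference with sex as a term. The intervals of the 5 called genes begin between 0.23 for Csf1r and 0.38 for Mrc1, and the pan-leukocyte genes Laptm5, Itgam, Itgb2, Coro1a and Il10ra sit near 0.

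C1q, the recognition part of the classical complement pathway, is built from chains A, B and C that macrophages secrete. C1qa was at -0.15, 0.03, -0.14 and -0.23 in WT and at -0.05, 0.27, 0.26 and 0.04 in KO, with KO1 below WT2. Its difference was 0.25 ± 0.10 (SE, limma, adjusted p = 0.259). C1qb was at -0.00, 0.09, -0.02 and -0.24 in WT and at 0.13, 0.28, 0.12 and 0.11 in KO, a difference of 0.20 ± 0.09 (SE, limma, adjusted p = 0.344). Here the groups did not overlap, although the lowest KO sample and WT2 were almost equal. C1qc was at -0.16, -0.01, -0.04 and -0.24 in WT and at 0.14, 0.22, 0.40 and 0.29 in KO, again without overlap. Its difference of 0.37 ± 0.09 (SE) just missed the threshold (limma, adjusted p = 0.057) and passed it with the replicate number as a block (limma, adjusted p = 0.040).

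The Fc receptor and ITAM adaptor genes gave 0 calls among 4, with a median difference of 0.26 and groups that did not overlap for Fcer1g, Tyrobp and Trem2. Fcer1g, the common signalling chain of Fc receptors, was at -0.16, -0.14, -0.17 and -0.19 in WT and at 0.12, 0.07, 0.24 and 0.30 in KO. The difference of 0.35 ± 0.08 (SE) was at the threshold: the adjusted p was 0.051 in limma's fit and 0.049 with the replicate number as a block. Tyrobp (DAP12), the adaptor of Trem2, was at -0.02, -0.09, -0.04 and -0.30 in WT and at 0.20, 0.28, 0.07 and 0.19 in KO, a difference of 0.30 ± 0.09 (SE, limma, adjusted p = 0.136). WT4 stood lowest among the WT samples for both. Trem2, a receptor for lipids on phagocytes, was at 0.02, 0.04, 0.07 and -0.21 in WT and at 0.32, 0.23, 0.14 and 0.12 in KO, a difference of 0.22 ± 0.09 (SE, limma, adjusted p = 0.269). Fcgr3, a low-affinity IgG receptor, was at -0.34, -0.14, 0.03 and -0.07 in WT and at 0.00, 0.08, 0.13 and 0.15 in KO, with KO1 just below WT3. Its difference was 0.22 ± 0.09 (SE, limma, adjusted p = 0.300).

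The lysosomal, phagocytic and antimicrobial effectors gave 0 calls among 8, with a median difference of 0.24 and a range from -0.01 for Cd14, the lipopolysaccharide co-receptor, to 0.53 for Ctss, the cysteine protease cathepsin S. Ctss (limma, adjusted p = 0.066) was above 0 in all KO samples, but KO3 at 0.03 fell below WT3 at 0.08. The groups did not overlap for Lgmn (legumain, 0.35), Aif1 (the actin-bundling protein Iba1, 0.31) and Ly86 (MD-1, a partner of the receptor RP105, 0.35). The gap was very small for Lgmn, with KO1 at -0.1587 and WT3 at -0.1594, and for Ly86, with KO3 at -0.005 and WT1 at -0.013. Without WT4 and KO3 the Lgmn difference was 0.13. Lyz2 (lysozyme, 0.18), Cybb (the catalytic subunit of the phagocyte oxidase, 0.10) and Mpeg1 (the pore-forming perforin-2, 0.05) overlapped between the groups. Cybb was well above background on 1 WT array and 4 KO arrays, so the KO arrays alone met the filter of at least 4 arrays. General lysosomal genes, which most cells express, gave 0 calls among 20 and a median of 0.22, with Lamp2 (a lysosomal membrane protein) at 0.35 and Ctsb (cathepsin B) at 0.32.

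The pan-leukocyte genes gave 0 calls among 8 and a median difference of 0.04, close to the 0.03 of all genes, and 5 of the 8 differences were above 0. Ptprc (CD45), the tyrosine phosphatase on the surface of leukocytes, was at 0.18, -0.16, 0.20 and 0.02 in WT and at 0.34, 0.45, 0.36 and 0.25 in KO. The groups did not overlap, and the difference was 0.29 ± 0.10 (SE, limma, adjusted p = 0.171). Rac2, a GTPase of blood cells, also did not overlap, with a difference of 0.20 (limma, adjusted p = 0.332), although KO3 at 0.079 barely exceeded WT2 at 0.074. Itgam (CD11b), an integrin chain of myeloid cells, was at 0.09, 0.25, 0.07 and -0.18 in WT and at -0.28, 0.10, 0.44 and -0.03 in KO. Its difference was -0.00 with an interval of -0.31 to 0.31, and its other 2 matched probes gave 0.28 and -0.01. The other 5 genes ran from -0.13 for the tetraspanin Cd53 to 0.05 for the lysosomal membrane protein Laptm5, with Itgb2 (the partner chain of Itgam) at 0.04, Coro1a (an actin regulator) at 0.03 and Il10ra (the interleukin 10 receptor) at -0.01. Cd53 was well above background on 3 WT arrays and 1 KO array, and the scanner software's own ratios gave it -0.95 ± 0.69 (SE). Itgb2 and Il10ra passed the filter on all arrays, but their signals were low. Outside WT1 and KO1 their red signals were 85.5 to 120 and 108 to 148.5, against 58 to 61 for negative controls. The part of low signal in these small differences was not tested.

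**Figure D3:**
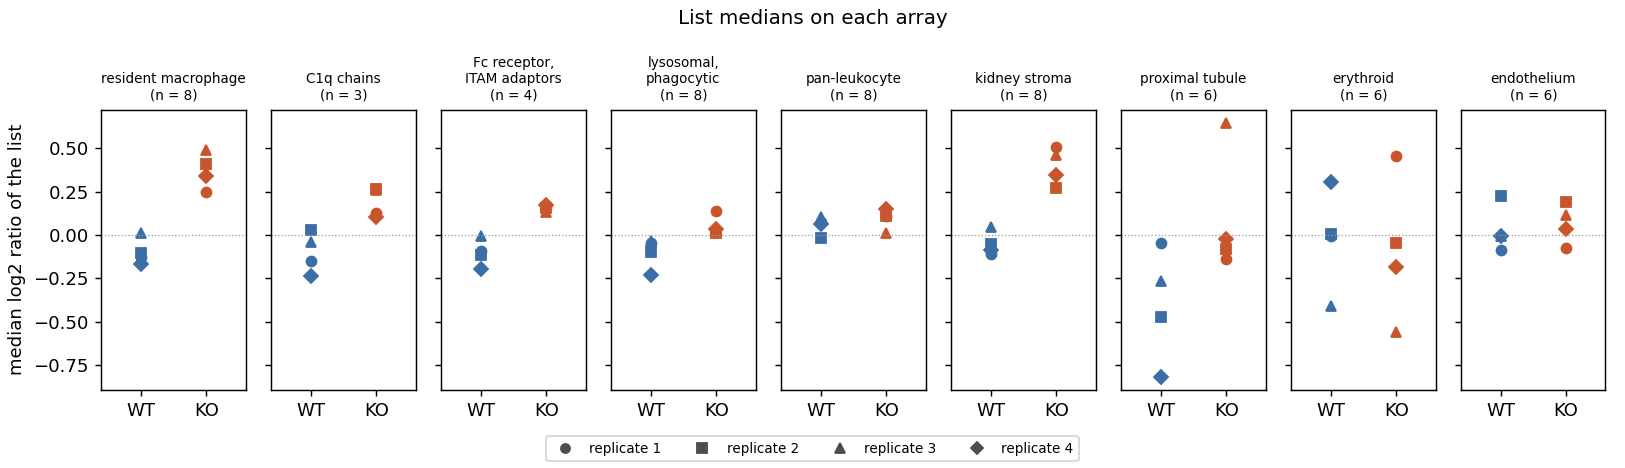
Median log2 ratio of a group of genes (panels, with the number of genes) in each of the 8 samples (points, WT and KO side by side). Resident macrophage genes lie between -0.17 and 0.01 in WT and between 0.25 and 0.49 in KO, whereas pan-leukocyte genes lie between -0.02 and 0.11 in WT and between 0.01 and 0.15 in KO.

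Summarised within each array, the median of the resident macrophage genes was -0.13, -0.10, 0.01 and -0.17 in WT1 to WT4 and 0.25, 0.41, 0.49 and 0.34 in KO1 to KO4. The pan-leukocyte median was 0.07, -0.02, 0.11 and 0.06 in WT and 0.11, 0.11, 0.01 and 0.15 in KO, so these groups of samples overlapped. Over all 34 genes the WT medians ran from -0.18 in WT4 to -0.03 and the KO medians from 0.12 to 0.23. WT4 was the lowest WT sample for 20 of the 34 genes (58.8%), against 18.4% of all genes. KO3 was the highest KO sample for 12 (35.3%), against 31.1% of all genes.

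The granulocyte alarmins S100a8 and S100a9, which together form calprotectin, varied far more between samples than the macrophage genes did. S100a8 was at -0.15, -1.44, -0.90 and -1.87 in WT1 to WT4 and at -0.37, -1.15, -0.26 and -0.50 in KO1 to KO4. S100a9 was at -0.22, -2.19, -1.20 and -2.88 in WT and at -0.98, -2.01, -0.35 and -0.78 in KO. Both genes had values below 0 on every array, lowest in WT4. Their WT1 values of -0.15 and -0.22 compare the reference RNA with itself and are no difference in expression. Their differences of 0.52 ± 0.30 and 0.59 ± 0.48 (SE) had adjusted p of 0.476 and 0.644 in limma's fit, and the groups overlapped. Without WT4 and KO3 the differences were 0.16 and -0.05, without WT1 and KO1 they were 0.77 and 1.04, and with sex as a term 0.87 and 1.16. Neither gene was called under any of these settings.

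**Figure D4:**
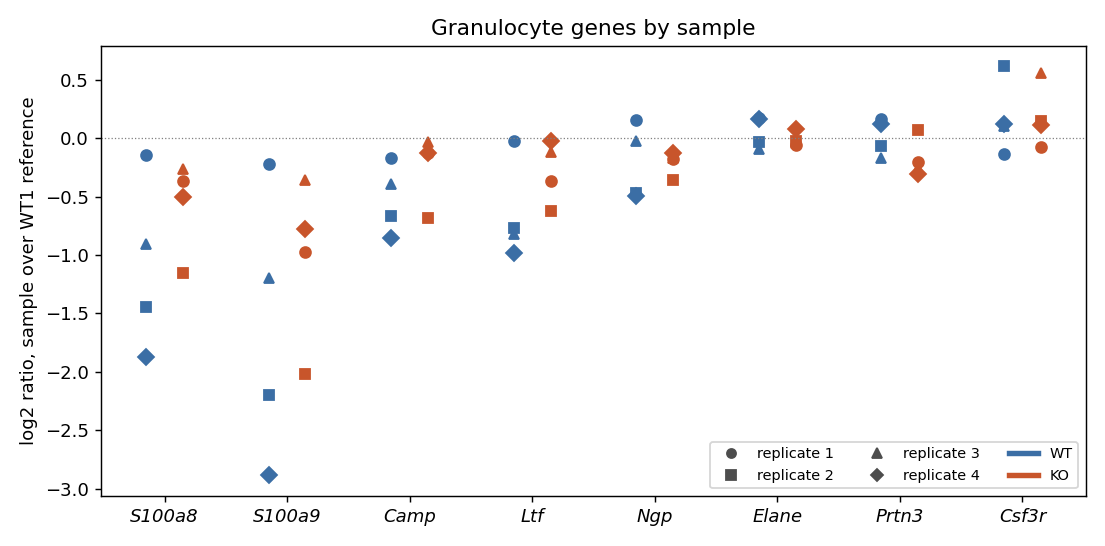
Log2 ratio to the WT1 reference of the measured granulocyte genes in each of the 8 samples. S100a9 runs from -2.88 in WT4 to -0.22 in WT1, and WT and KO samples overlap for both S100a8 and S100a9.

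The other granulocyte markers gave 0 calls. All 8 measured genes of that list, which includes S100a8 and S100a9, had a median difference of 0.14, and the iron-binding protein Ltf gave 0.37 with values from -0.99 in WT4 to -0.02 in KO4. Ccr2 (the chemokine receptor of inflammatory monocytes) and Cd163 (the haemoglobin scavenger receptor) were well above background on the WT1 array alone, where signals were raised throughout. Mpo (myeloperoxidase of early granulocytes) was well above background on 1 other WT array alone. Of 5 monocyte markers, 1 could be tested: Plac8, a small cysteine-rich protein, was at -0.66, -0.75, -0.28 and -0.55 in WT and at 0.18, 0.03, 0.38 and 0.10 in KO. Plac8 rose by 0.73 ± 0.12 (SE, limma, adjusted p = 0.0084), and other cell types express it as well. That value is from its brightest probe, and the mean of its kept probes gave 0.54 (limma, adjusted p = 0.0094).

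The ligands and recruiting factors of macrophages gave 0 calls among 14 measured of 19 listed, with a median difference of 0.13. Il34, which binds Csf1r, was at 0.12, -0.26, 0.15 and -0.38 in WT and at 0.21, 0.64, 0.83 and 0.33 in KO. Its groups did not overlap, and its difference was 0.60 ± 0.15 (SE, limma, adjusted p = 0.072). It turned to -0.11 with the red channel alone and passed the threshold with the replicate number as a block (limma, adjusted p = 0.025). The chemokine Cxcl10 gave 0.35. Csf1, the other ligand of Csf1r, gave 0.14 (limma, adjusted p = 0.530), and Cx3cl1, the ligand of Cx3cr1, gave 0.12 (limma, adjusted p = 0.695). Both ligands overlapped between the groups, and both were singled out after their values were seen.

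Other macrophage genes outside the 34 gave 2 calls, both higher in KO, among 23 measured of 40 listed, and a median of 0.13. Cxcl16, a scavenger receptor and chemokine, was one of them and rose by 0.51 ± 0.11 (SE, limma, adjusted p = 0.033). Adgre1 (F4/80), the classical macrophage marker of the mouse, gave 0.25 (limma, adjusted p = 0.266), with WT2 at 0.19 inside the KO range of 0.18 to 0.34. Among opsonins and complement genes other than C1q, 2 of 10 measured were called, both higher in KO. C2, a protease of the classical pathway, was one of them and rose by 0.55 ± 0.13 (SE, limma, adjusted p = 0.045). The C2 call was lost with the software's ratios (adjusted p = 0.101), scale normalization (0.066), no filter on dim probes (0.051), the sex term (0.391) and without WT4 and KO3 (0.205). The Cxcl16 and Plac8 calls were lost with the sex term (adjusted p = 0.232 and 0.104) and without WT4 and KO3 (0.17 and 0.056). Median centring and the red channel alone left none of C2, Cxcl16 and Plac8 called. The C2 and Cxcl16 probes were not well above background on the WT1 array, so neither passed the filter on all 8 arrays. Genes of leukocyte signalling and the cytoskeleton gave 0 calls among 36, with a median of 0.15, led by Lst1 at 0.43 and the transcription factor Runx1 at 0.37.

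Markers of other blood cells were measured for few genes. T and NK cell markers gave 0 calls among 4 (median 0.09, Cd4 at 0.24 and Il2rb at 0.11), and the B cell marker Cd79b, the only one tested, gave 0.30 without a call. Dendritic cell and MHC class II genes gave 0 calls among 5 (median 0.12, Cd74 at 0.35 and H2-Ab1 at 0.24), and mast cell genes 0 among 3 (median 0.25, Tpsb2 at 0.32 and Cpa3 at 0.25). Erythroid genes gave 0 calls among 6 (median -0.22, Alas2 at 0.48 and Hbb-bh1 at -0.54).

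Markers of other kidney cells differed in how they followed the groups. Stroma genes gave 4 calls among 8, all higher in KO (Pdgfra, Dcn, Lum and Col1a1), and the median of the list lay between -0.11 and 0.05 in the WT samples and between 0.27 and 0.51 in the KO samples. Nephron progenitor genes gave 2 calls among 6, both lower in KO (Cited1 and Meox2, beside 0.543% of all genes called lower), with array medians from -0.08 to 0.24 in WT and from -0.45 to -0.13 in KO. Proximal tubule genes gave 0 calls among 6, with a median of 0.33, Slc27a2 at 0.77 and Aqp1 at 0.31, and their array medians overlapped between WT and KO. Endothelial genes gave 0 calls among 6 and a median of 0.01, also with overlapping array medians, with Cdh5 at 0.37 and Pecam1 at -0.14. The part of these cell types in the macrophage values was not tested.

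The calls depended on the normalization and on the samples that stood apart. With the scanner software's own ratios Cx3cr1 and Pf4 were called, beside 0.522% of all genes called higher. Median centring in place of loess left 0 of the 34 genes called in limma's fit (0 at an unadjusted p below 0.05), beside 0% of all genes. The difference of Mrc1 was then 0.63 ± 0.31 (SE), and the median over the 34 genes was 0.33. Without WT1 and KO1, Mrc1, Cx3cr1 and F13a1 were called, 3 of the 34 beside 1.26% of all genes called higher, and the median difference was 0.32. Csf1r was then at 0.46 (limma, adjusted p = 0.144) and Pf4 at 0.52 (limma, adjusted p = 0.061), sizes close to those with all samples. When the replicate number was a block as well, 6 of the 34 genes were called, beside 2.85% of all genes called higher. These were the 5 genes called with all samples, with Csf1r at an adjusted p of 0.037 and Pf4 at 0.024 in limma's fit, and Ms4a7 (0.44, limma, adjusted p = 0.044). Without WT4 and KO3, Mrc1 was the only one called (0.51, limma, adjusted p = 0.044), beside 0.272% of all genes called higher, and the median difference was 0.18. Leaving out single samples gave between 2 calls (Mrc1 and Cx3cr1, without KO4) and 5. From 2 to 4 of the 5 genes called with all samples were called in these fits, and without WT4 or without KO2 there were 3 calls. Mrc1 and Cx3cr1 were called in each of the 8 fits.

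Sex and genotype were nearly aligned. With sex as a term the comparison rests on WT2, the only male WT sample, and 0 of the 34 genes were called (9 at an unadjusted p below 0.05), beside 0.0286% of all genes called higher. Under that term Mrc1 was at 0.55 ± 0.13, Pf4 at 0.71 ± 0.14, Cx3cr1 at 0.46 ± 0.14, F13a1 at 0.45 ± 0.15 and Csf1r at 0.22 ± 0.15 (SE). The size for Mrc1 was thus as large as without the term, whereas that for Csf1r was 0.22 against 0.47.

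**Figure D5:**
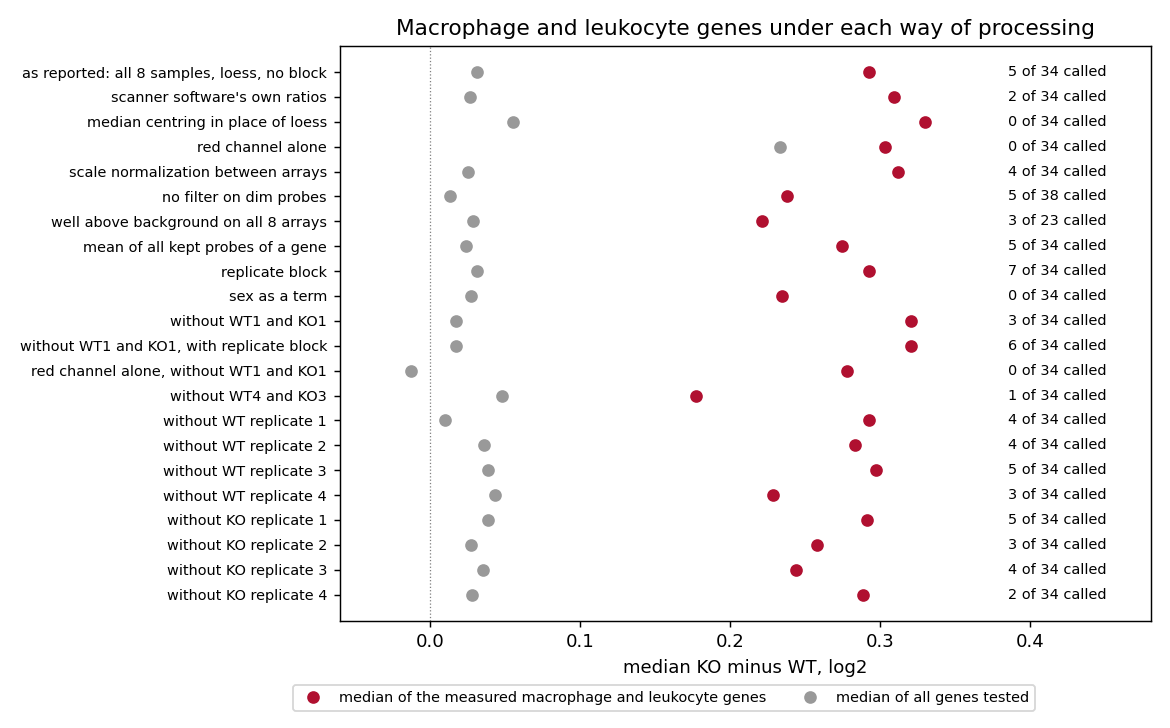
Median difference between KO and WT of the measured macrophage and leukocyte genes and number of them called under each way of processing the data (rows). The median stays above that of all genes in every row, from 0.18 without WT4 and KO3 to 0.33 with median centring, while the number called runs from 0 to 7.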

How the data were processed

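Dye-labelled cRNA was made from purified total RNA by linear amplification, per the labels' protocols. Samples were grouped by their labelled genotype, and the series' design text calls them biological replicates. The authors deposited the scanner text of version 10.7.3.1 of Agilent Feature Extraction, which per the file headers holds median red and green spot intensities and local background intensities, not normalized, with flags. The software's own ratio was deposited as log10 of red over green, background-subtracted and dye-normalized. The deposited value table of the series held the same log10 ratios, with a median of 0 in each column.

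With limma 3.58.1 under R 4.3.3 (files read by version 1.17.8 of data.table), the spot intensities were background-corrected (normexp, offset 50) and normalized by loess within arrays to log2 ratios. Control spots and 1765 spot readings marked as outliers (0.372%) were left out, and 0 spots were saturated. Spots of a probe were averaged. A probe was kept when any of its spots was well above background in red on at least 4 of 8 arrays. Names came from RefSeq accessions without version (GRCm38.p6, names only) for 27509 of 29150 probes with an accession, and the brightest of a gene's kept probes stood for it. Differences were tested with lmFit and eBayes over 13987 genes, of which 296 were called, 220 higher and 76 lower in KO, at an adjusted p below 0.05. SE is limma's moderated standard error. The code was tested on simulated data. The number of arrays limits the precision.

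Same-numbered WT and KO samples shared a slide column, and their deviations from the group means correlated at 0.138, 0.374, 0.257 and 0.304. Samples with different numbers correlated at -0.56 to 0.369, with WT4 and KO1 at 0.369 and WT2 and KO3 at 0.309. Every same-numbered pair thus correlated positively, whereas pairs with different numbers were of both signs. Because WT4 with KO1 and WT2 with KO3 lay in the range of the same-numbered pairs, these values do not settle the pairing. The numbers were still taken to pair the samples, and the fit with the replicate number as a block is given where it changes a call or a count. Sex was read from Ddx3y. The planned use of Xist was dropped, because no probe was matched to it.

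The genes and the 18 further lists were chosen with earlier results of these data known. Called genes, C1q, Fc receptor and ITAM genes and the defining markers got their value in every sample. Of each further list up to 4 called genes, or up to 2 uncalled ones, were named, except that 2 called genes are not reported here, and Csf1, Cx3cl1 and Adgre1 were named after their values were seen. Alternatives changed the background correction, normalization, filter, probe rule, block, sex term and the samples used.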

Additional observations from a re-analysis of the deposited data

Results flagged for a closer look

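A sample lay far from the other 3 of its group in 7 of 68 groups examined, or 10.3%, where chance gives about 5%. The gap to the nearest sample, as a share of the group's range, was above Dixon's critical value for 4 samples at 95% in each. Stab1 was at 0.47 in WT2, against -0.26 to -0.15 in the other WT samples. Cd53 was at -0.079 in WT2, against 0.15 to 0.16. Itgb2 was at 0.18 in WT1, against -0.13 to -0.10. Aif1 was at -0.26 in WT4, against -0.00 to 0.04, and at 0.082 in KO3, against 0.31 to 0.33 in the other KO samples. Ms4a7 was at 0.55 in KO3, against 0.06 to 0.12, and C1qb was at 0.28 in KO2, against 0.11 to 0.13.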

How the results depend on the processing

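Of 703 values of the 34 genes under 21 alternatives, 597 kept their direction and their side of the threshold, 45 lost a call, 9 gained one and 52 changed sign. Genes called in all numbered 296 as reported, 123 with the scanner software's ratios, 0 with median centring (178 at an unadjusted p below 0.05 in limma's fit), 1 with the red channel alone, 141 with the red channel and without WT1 and KO1, 12 with a term for sex, 554 when the replicate block was added, 519 with the block and without WT1 and KO1, and 70 without WT4 and KO3, a setting chosen after seeing the data. Leaving out each sample in turn gave 83 to 345. The number of macrophage and leukocyte genes called was 5 as reported, 2 with the software's ratios, 0 with median centring, the red channel alone (with or without WT1 and KO1) or the sex term, 3 with probes above background on all 8 arrays (of 23 measured), 3 without WT1 and KO1, 1 without WT4 and KO3, and 2 to 5 without single samples. The median of these genes was 0.18 without WT4 and KO3, and 0.23 to 0.30 without single samples. With probes above background on all 8 arrays, Csf1r, Pf4 and Fcer1g were called, beside 147 of 9817 genes called higher. Mrc1, Cx3cr1 and F13a1 did not pass that filter. The replicate block added C1qc and Fcer1g and changed no other call among the 34 genes. The causes were not tested.

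These values changed sign. Software ratios gave Cd14 0.061 and Il10ra 0.037. Median centring gave Cd14 0.0047, Itgam 0.012 and Il10ra 0.045. Scale normalization gave Itgam 0.010. The mean of probes gave Itgam 0.14. The red channel alone gave Folr2 -0.033, Lyz2 -0.12, Mpeg1 -0.087, Aif1 -0.14, Cd14 0.17, Ptprc -0.29, Laptm5 -0.082, Itgam 0.051, Itgb2 -0.55, Il10ra 0.19 and Il34 -0.11. The red channel without WT1 and KO1 gave Cd14 0.019, Itgam 0.18, Itgb2 -0.042 and Il10ra 0.14. The sex term gave Stab1 -0.19, Folr2 -0.21 and Cd53 0.043. Leaving out WT1 and KO1, with or without the block, gave Mpeg1 -0.026, Itgam 0.12 and Coro1a -0.013. Leaving out WT4 and KO3 gave Folr2 -0.062, Cd14 0.028, Il10ra 0.038 and S100a9 -0.052. Without single samples, Cd14 ran from -0.11 to 0.061, Coro1a ran from -0.077 to 0.17, Folr2 ran from -0.084 to 0.11, Il10ra ran from -0.083 to 0.028, Itgam ran from -0.13 to 0.11 and Mpeg1 ran from -0.020 to 0.12.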
